A study of Mus musculus with 25 samples.

Results

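A set of 9 genes that mark eosinophils or draw them into tissue was followed across 25 mouse melanomas: the chemokines Ccl11 and Ccl24, the receptors Ccr3 and Il5ra, the surface lectin Siglecf, the granule proteins Prg2, Epx and Ear2, and the lipoxygenase Alox15. They were picked by symbol, and all 9 were found among the 55450 genes of the count table. The tumours grew from B2905, also called M4, a melanoma cell line implanted in C57BL/6 mice, and RNA was sequenced from the whole tumour. After the average tumour size had reached 75 mm3, mice received either anti-CTLA-4, an antibody to an inhibitory receptor of T cells, or an isotype control antibody, IgG2b, both at 10 mg/kg. The 5 IgG2b tumours are called controls here. The 20 anti-CTLA-4 tumours were sorted by the submitters from the course of tumour size, judged 10 to 11 days after the last dose. Of these, 6 non-responders kept growing, 6 were stable and 8 responders shrank. The labels give no age or sex for the mice, and 5 untreated mice were not analysed here. Nothing in the labels says whether tumours of a group shared a cage or a day, so the p-values measure the spread between these tumours.

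Eosinophils are granulocytes of the bone marrow that mature under interleukin-5, whose specific receptor chain is encoded by Il5ra. They enter tissue along gradients of the eotaxins, among them Ccl11 and Ccl24, which bind the receptor Ccr3 on their surface, and in mice they carry the inhibitory lectin Siglec-F. Their granules hold major basic protein (Prg2), eosinophil peroxidase (Epx) and eosinophil-associated ribonucleases such as Ear2. Alox15 encodes a lipoxygenase that oxidises arachidonic acid and is made by eosinophils and by some macrophages. Eotaxins are made by stromal cells and macrophages, and Siglecf and Ear2 transcripts also occur in macrophages. In bulk tumours, fewer cells of a type and less RNA per cell cannot be told apart.

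The genes lie on 7 chromosomes of GRCm38 and are all annotated as protein-coding. Alox15 (chr11:70344152-70352031, minus strand), Ccl11 (chr11:82057823-82062955, plus) and Epx (chr11:87864000-87875536, minus) share chromosome 11 at a distance. Siglecf lies at chr7:43351341-43359531 (plus), Ccr3 at chr9:124021972-124031689 (plus), Ccl24 at chr5:135569937-135573049 (minus), Il5ra at chr6:106710357-106749037 (minus), Prg2 at chr2:84980461-84983632 (plus) and Ear2 at chr14:44102654-44103534 (plus). Ear2 alone overlaps another annotated gene, the lincRNA Gm49101 on the opposite strand. It also belongs to a family of near-identical copies: 41.5% of the 50-base stretches of its transcripts (278 of 670) recur in Ear10, Ear1, Ear6 or the pseudogenes Ear-ps2 and Ear-ps9. Its counts are therefore uncertain, since reads can be split among copies. The share was 0.899% for Il5ra, 0.206% for Siglecf and 0 for the other 6 genes.

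The 250 bases upstream of the start were found in the RefSeq promoter table (GRCm38.p6) for Siglecf, Ccr3, Il5ra, Epx and Ear2. The receptor promoters are shown because they were the only ones of these 5 with a match to any of the 4 motifs searched, and because the receptors moved together in the data below. The capitals mark AGATAA, a form of the element bound by GATA factors, which guide the eosinophil lineage. Sequences run 5′ to 3′ on the gene's own strand. The Ccr3 window is chr9:124021721-124021970 (plus strand), and its match begins 30 bases upstream of the RefSeq start, which lies 1 base before the gene start given above. The Il5ra window is chr6:106749038-106749287 (minus strand), with a match beginning 74 bases upstream.
Ccr3: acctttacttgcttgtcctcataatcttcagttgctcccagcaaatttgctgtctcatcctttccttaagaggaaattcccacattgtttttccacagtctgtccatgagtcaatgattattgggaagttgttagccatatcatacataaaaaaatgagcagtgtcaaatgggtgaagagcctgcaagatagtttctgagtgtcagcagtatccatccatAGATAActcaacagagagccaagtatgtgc
Il5ra: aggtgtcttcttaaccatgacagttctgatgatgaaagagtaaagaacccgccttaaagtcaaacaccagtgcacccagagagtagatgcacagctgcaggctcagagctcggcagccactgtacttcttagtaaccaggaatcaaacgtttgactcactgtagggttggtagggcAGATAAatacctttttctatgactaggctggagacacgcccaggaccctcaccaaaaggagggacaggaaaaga
Searched on both strands, AGATAA occurs in 9.99% of the 32851 promoter windows of this length, so the matches are a description only. The motif TGATAA (7.94% of windows) shares the letters GATAA with it. A STAT element, TTC and GAA, was searched with 3 bases between its ends (7.02% of windows) and with 4 (5.85%). None of these 3 was found in the 5 windows.

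The libraries held 8.76 to 34.3 M counts. Protein-coding genes took 82.9% to 89.2% of counts in controls, non-responders and stable tumours, and 23.8% to 87.0% in responders, with responder 1 lowest and responder 5 highest. Every comparison with responders carries this difference in library composition. The labels number the libraries group by group, so processing order and group cannot be told apart. The melanocyte lineage markers, a check of the tumour label, had a summed level of 10680 to 17510 scaled counts per M counts (CPM) in controls and 725.9 to 14060 in non-responders. It was 227.6 to 504.7 CPM in stable tumours and 303.5 to 725.3 CPM in responders. Values below are CPM of libraries scaled with TMM, unless RPKM (reads scaled to gene length and library depth) is named.

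Transcripts of the receptors Ccr3 and Il5ra, of Siglecf, of the granule protein gene Prg2, of Alox15 and of the eotaxin Ccl11 were higher in anti-CTLA-4 tumours than in controls. Of the 8 genes with enough counts to test, 6 rose: Ccr3, Alox15, Prg2, Il5ra, Ccl11 and Siglecf, by 3.82-fold (Siglecf) to 15.8-fold (Ccr3). Ccl24 and Ear2 did not pass the test. The test was edgeR's quasi-likelihood test with an adjusted p under 0.05, and 51.1% of all 18031 genes tested passed it in this comparison, 27.7% higher and 23.4% lower. The median log2 fold change of the 8 genes was 2.42, against 0.07 over all genes. The same 6 genes rose in stable tumours against controls, where 41.8% of all genes passed (22.2% higher, 19.6% lower), with a median of 3.30 against 0.02. They also rose in responders against controls, where 65.0% passed (36.1% higher, 28.9% lower), with a median of 2.51 against 0.16. With only responders and controls in the fit, Il5ra had too few counts to test. In non-responders 2 of the 8 rose, Ccr3 and Prg2, where 13.9% of all genes passed (10.6% higher, 3.29% lower), with a median of 1.62 against 0.04. With only non-responders and controls in the fit, both had too few counts to test, so they entered this test through counts in the other groups. All comparisons with controls share the same 5 control tumours. Ccr3, Il5ra and Prg2 had 27, 15 and 12 counts over these controls. They entered every comparison with controls through their counts in anti-CTLA-4 tumours, where they were higher.

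**Figure D1:**
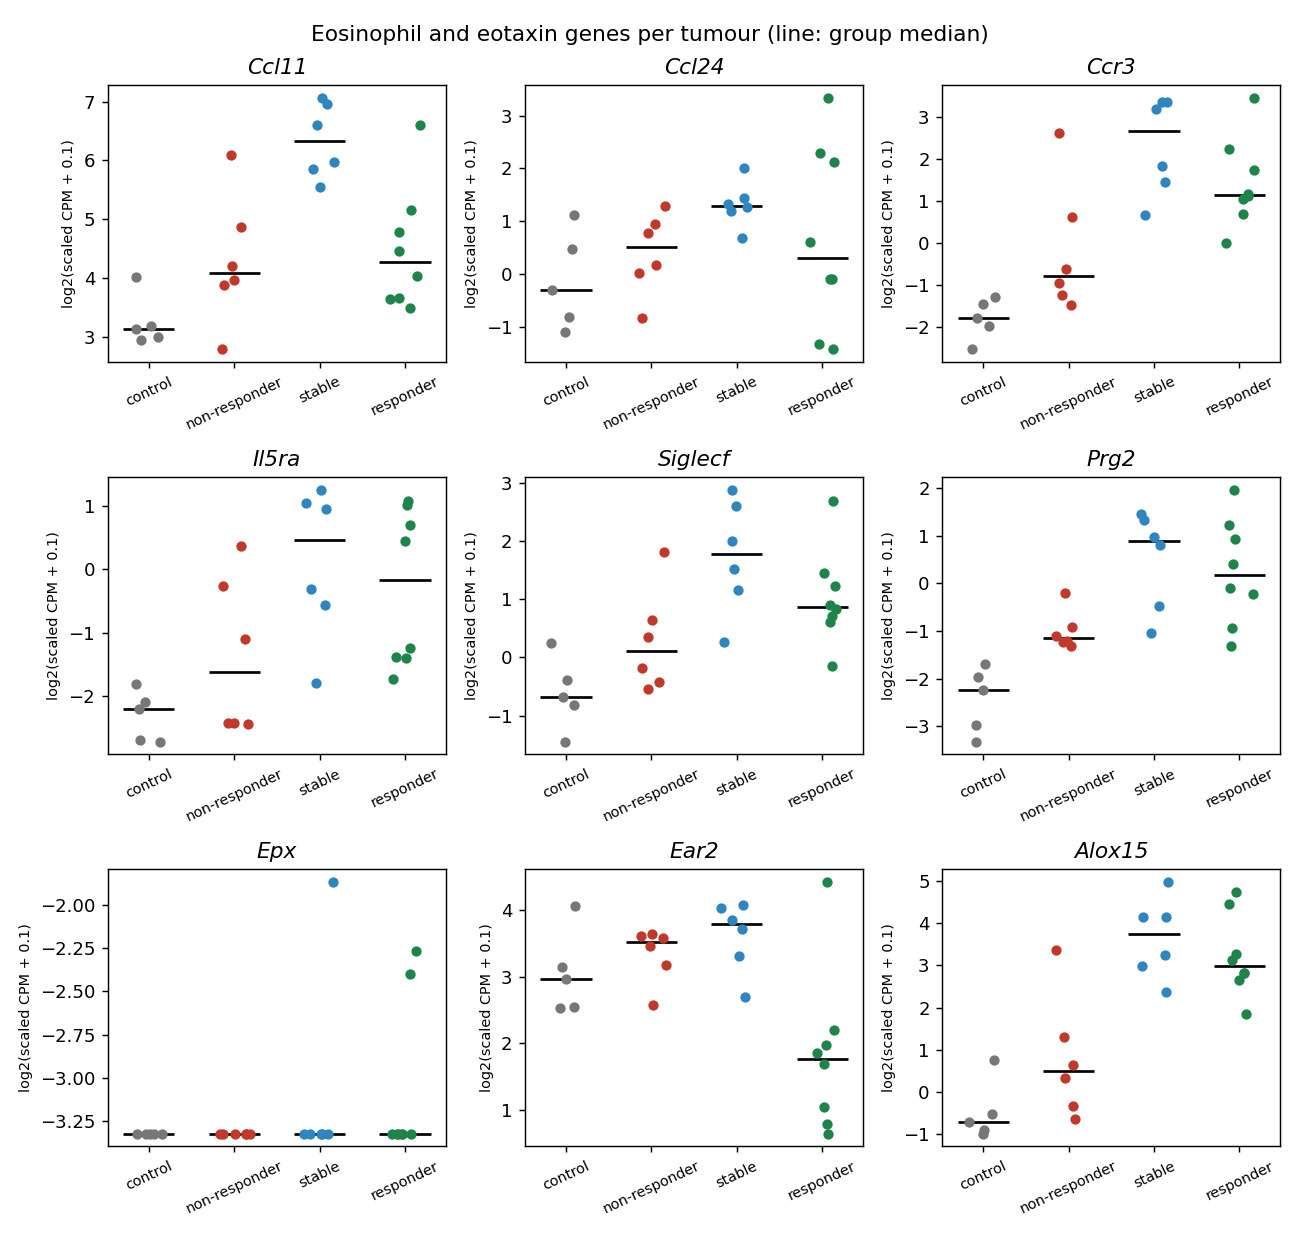
Level of each of the 9 genes in each of the 25 tumours, as log2(scaled CPM + 0.1) on the vertical axis, by group on the horizontal axis; points are tumours and lines are group medians. For Ccl11 the 6 stable tumours sit at 46.9 to 134 CPM, above all 5 controls at 7.63 to 16.1 CPM, and for Epx nearly all tumours sit at 0 counts.

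The plot of levels by tumour shows tumours that were the highest of their group in several genes. Control 5 was the highest control for Siglecf, Ccr3, Ccl11, Prg2, Ear2 and Alox15, and it enters every comparison with controls. In scaled CPM, responder 1 was the highest responder for Ccl24, Il5ra, Prg2 and Alox15, from 45, 9, 17 and 118 counts. Its TMM factor of 0.339, the lowest of all tumours, cut its 13.2 M counts to an effective 4.48 M. Responder 5 held 94, 43, 50 and 487 counts of these genes in 21.2 M, at a factor of 1.05. Per unscaled M counts, responder 5 lay above responder 1 for each of these genes. In the authors' RPKM, responder 1 was again the highest responder for each. Non-responder 6 was the highest non-responder for Ccl11, Ccr3, Il5ra, Siglecf, Prg2 and Alox15. Responder 5 was the highest responder for Ccl11, Ccr3, Siglecf and Ear2, and it is also the 1 responder whose protein-coding share (87.0%) lay in the range of the other groups. The part of that share in these levels was not tested within the responders.

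Among the ligands, Ccl11, which encodes eotaxin-1, was the more abundant. In controls it measured 8.67, 7.63, 7.90, 9.07 and 16.1 CPM in tumours 1 to 5. Non-responders ranged from 6.82 to 68.2 CPM with a median of 17.0, stable tumours from 46.9 to 134 CPM with a median of 79.98, and responders from 11.2 to 97.2 CPM with a median of 19.2. All 6 stable tumours lay above every control, and 7 of 8 responders lay below every stable tumour, while responder 5 lay among them. Ccl11 was 8.83-fold higher in stable tumours than in controls (log2 fold change 3.14 ± 0.59 (SE), adjusted p = 0.000157) and 3.00-fold higher in responders than in controls (1.59 ± 0.54, adjusted p = 0.0126). Against non-responders it was higher in stable tumours (1.77 ± 0.52, adjusted p = 0.0255), with 3 of 6 above every non-responder. That call was lost without any 1 of non-responders 1 to 3 or stable tumours 3 and 4, with values from 1.57 to 2.36 over the 12 tumours left out. In responders it was 2.94-fold lower than in stable tumours (-1.56 ± 0.47, adjusted p = 0.0148), and -2.14 without responder 5. With adjustment for the protein-coding share that difference was -0.78 (adjusted p = 0.490) and no longer passed. In that adjusted comparison 0 of all 18031 genes passed, so the loss of the call was not particular to Ccl11. Between responders and non-responders the log2 fold change was 0.22 ± 0.48 (adjusted p = 0.724), and it was -0.36 without responder 5. Without responder 5 every responder had a lower protein-coding share than any tumour of the other groups.

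Ccl24, which encodes eotaxin-2, did not pass edgeR's test in any of the 7 comparisons. Controls measured 0.467, 0.368, 2.07, 0.712 and 1.29 CPM. Non-responders ranged from 0.458 to 2.35 CPM with a median of 1.33, stable tumours from 1.49 to 3.90 with a median of 2.35, and responders from 0.271 to 10.04 with a median of 1.13. Responders were spread on both sides of the other groups: responders 1, 3 and 5 lay above every stable tumour and 5 others below every one. The highest value, in responder 1, rests on 45 counts. The largest log2 fold change was 1.48 ± 0.68 in responders against controls (adjusted p = 0.0592), which was 0.89 without responder 1. It passed without control 3 (1.95, adjusted p = 0.0271), without any 1 of responders 2, 4, 7 and 8, and in DESeq2 (1.48, adjusted p = 0.0317). In stable tumours against controls it was 1.34 ± 0.70 (adjusted p = 0.131), and 5 of 6 stable tumours lay above every control. It passed with only those groups in the fit (1.35, adjusted p = 0.0194).

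The receptor Ccr3 had the largest change of the 8 tested genes against controls. It measured 0.267, 0.0737, 0.157, 0.192 and 0.310 CPM in controls, from 2 to 8 counts a tumour. Non-responders ranged from 0.259 to 6.11 CPM (median 0.487), stable tumours from 1.48 to 10.2 (median 6.31) and responders from 0.901 to 11.0 (median 2.12). Every stable tumour and every responder lay above every control, and 5 of 6 non-responders did. The difference from controls was 30.4-fold in stable tumours (log2 4.93 ± 0.90, adjusted p = 0.000103), 17.1-fold in responders (4.09 ± 0.86, adjusted p = 0.000246) and 7.60-fold in non-responders (2.93 ± 0.84, adjusted p = 0.0213). The last rested on single tumours: it was 1.60 (adjusted p = 0.147) without non-responder 6, and the call was also lost without control 2 or control 4. With only non-responders and controls in the fit, Ccr3 had too few counts to test. Stable tumours exceeded non-responders by 2.00 ± 0.71 (adjusted p = 0.0569), which passed without non-responder 6 (3.33, adjusted p = 0.00104), without stable 5 (2.21, adjusted p = 0.0421), and in DESeq2 (2.03, adjusted p = 0.0197). Responders exceeded non-responders by 1.17 ± 0.67 (adjusted p = 0.147), and by 2.49 (adjusted p = 0.00293) without that tumour.

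Il5ra, the interleukin-5 receptor chain, was sparse, with 1 to 5 counts in each control. Control values were 0.133, 0.184, 0.117, 0.0548 and 0.0517 CPM. Non-responders ranged from 0.0832 to 1.18 CPM (median 0.225), stable tumours from 0.187 to 2.29 (median 1.27) and responders from 0.200 to 2.01 (median 0.794). All stable tumours and all responders lay above every control, the lowest of each group only just. Il5ra was 11.0-fold higher in stable tumours (log2 3.47 ± 0.83, adjusted p = 0.00155) and 8.37-fold higher in responders (3.07 ± 0.81, adjusted p = 0.00208) than in controls. With only responders and controls in the fit, it had too few counts to test. The difference of non-responders from controls, 1.88 ± 0.82, did not pass (adjusted p = 0.132). The differences among the 3 anti-CTLA-4 groups did not pass either, and without non-responder 6 those of stable tumours (2.31, adjusted p = 0.0265) and responders (1.91, adjusted p = 0.0324) from non-responders did.

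Siglecf measured 0.267, 0.663, 0.470, 0.521 and 1.09 CPM in controls. Non-responders ranged from 0.583 to 3.40 CPM (median 0.975), stable tumours from 1.10 to 7.25 (median 3.33) and responders from 0.801 to 6.29 (median 1.72). The 6 stable tumours and 7 of 8 responders lay above every control, though stable 5 exceeded control 5 by little. The difference from controls was 6.42-fold in stable tumours (log2 2.68 ± 0.58, adjusted p = 0.000557) and 3.87-fold in responders (1.95 ± 0.55, adjusted p = 0.00327). In stable tumours Siglecf also exceeded its level in non-responders, by 1.52 ± 0.51 (adjusted p = 0.0464). That call was lost without any 1 of non-responders 1 to 5 or stable tumours 2 to 4, with values from 1.24 to 2.06 over all 12 tumours left out. Responders and stable tumours differed by -0.73 ± 0.47 (adjusted p = 0.215), and by -1.17 (adjusted p = 0.0313) without responder 5. The responders left then all had a lower protein-coding share than any stable tumour.

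Of the granule genes, Prg2 separated every anti-CTLA-4 tumour from every control. Controls measured 0, 0.111, 0.157, 0.0274 and 0.207 CPM, from 12 counts in all. Non-responders ranged from 0.301 to 0.764 CPM (median 0.348), stable tumours from 0.383 to 2.63 (median 1.76) and responders from 0.300 to 3.79 (median 1.03). The lowest of the 20 anti-CTLA-4 tumours, responder 8, rests on 6 counts, and responder 4 on 3. The difference from controls was 16.1-fold in stable tumours (log2 4.01 ± 0.72, adjusted p = 8.9e-05), 13.8-fold in responders (3.79 ± 0.71, adjusted p = 7.3e-05) and 4.31-fold in non-responders (2.11 ± 0.71, adjusted p = 0.0478). The last call was lost without any 1 of controls 1 to 4 or of non-responders 1, 2, 4, 5 and 6, with values from 1.78 to 2.49. With only non-responders and controls in the fit, Prg2 had too few counts to test. Prg2 was also higher than in non-responders in both other groups, by 1.90 ± 0.59 in stable tumours (adjusted p = 0.0315) and by 1.68 ± 0.57 in responders (adjusted p = 0.0185). The first was lost without any 1 of non-responders 1 to 5 or stable tumours 2 to 4, and the second with adjustment for the protein-coding share (1.27, adjusted p = 0.178).

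Epx had 8 counts in all 25 tumours together: 4 in stable 4, 2 in responder 3 and 2 in responder 5. It was at 0 in all controls and all non-responders, which with a limit of 3 counts over the group allows up to 0.0217 CPM in controls and 0.0224 CPM in non-responders, for counting error only. It was too low for the count test, and exact permutation tests of its CPM found no difference in the 7 comparisons (adjusted p of 1 in each, and 0 of 7 at an unadjusted p under 0.05). The authors' RPKM table lists values of up to 0.0766 for it, some of them in tumours with 0 counts. A difference in Epx was not detectable at this depth.

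Ear2, unlike Prg2, did not pass edgeR's test against controls in any group with all tumours. It measured 5.67, 8.73, 5.71, 7.70 and 16.6 CPM in controls. Non-responders ranged from 5.83 to 12.4 CPM (median 11.4), stable tumours from 6.35 to 16.7 (median 13.7) and responders from 1.45 to 21.4 (median 3.30). The responders divided: 7 lay between 1.45 and 4.46 CPM, below every tumour of the other groups, and responder 5 lay above every one of them. Ear2 was 2.42-fold lower in responders than in stable tumours (-1.27 ± 0.46, adjusted p = 0.0322). It differed from non-responders by -0.97 ± 0.46 (adjusted p = 0.0809) and from controls by -0.75 ± 0.48 (adjusted p = 0.174). Without responder 5 the 3 differences were -2.18 (adjusted p = 2.38e-05), -1.87 (adjusted p = 3.25e-05) and -1.65 (adjusted p = 6.5e-05). The 7 responders left had protein-coding shares of 23.8% to 74.3%, all below the lowest of the other groups, 82.9%. In that setting outcome and library composition cannot be told apart. The call against stable tumours was lost without any 1 of stable tumours 1, 2 and 4 or of the other 7 responders, and with adjustment for the protein-coding share (-0.78, adjusted p = 0.499). In that adjusted comparison 0 of all 18031 genes passed, so this last loss was not particular to Ear2.

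Alox15 measured 0.600, 0.405, 0.509, 0.438 and 1.60 CPM in controls. Non-responders ranged from 0.541 to 10.2 CPM (median 1.31), stable tumours from 5.10 to 31.3 (median 13.4) and responders from 3.50 to 26.3 (median 7.82). Every stable tumour and every responder lay above every control, and 5 of 6 non-responders, those at or under 2.39 CPM, lay below all of them. The difference from controls was 21.2-fold in stable tumours (log2 4.40 ± 0.77, adjusted p = 6.9e-05) and 16.0-fold in responders (4.00 ± 0.75, adjusted p = 7.4e-05). In non-responders it was 1.99 ± 0.71 and did not pass (adjusted p = 0.0640). It passed without control 5 (2.49, adjusted p = 0.0389), without any 1 of non-responders 2, 3 and 5, and in DESeq2 (1.92, adjusted p = 0.0218), and was 0.84 without non-responder 6. Alox15 exceeded its level in non-responders by 2.41 ± 0.64 in stable tumours (adjusted p = 0.0148) and by 2.01 ± 0.61 in responders (adjusted p = 0.0103). Without non-responder 6 these were 3.56 and 3.16. With adjustment for the protein-coding share the difference between responders and non-responders was 1.78 (adjusted p = 0.0878). Responders and stable tumours differed by -0.41 ± 0.57 (adjusted p = 0.586).

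**Figure D2:**
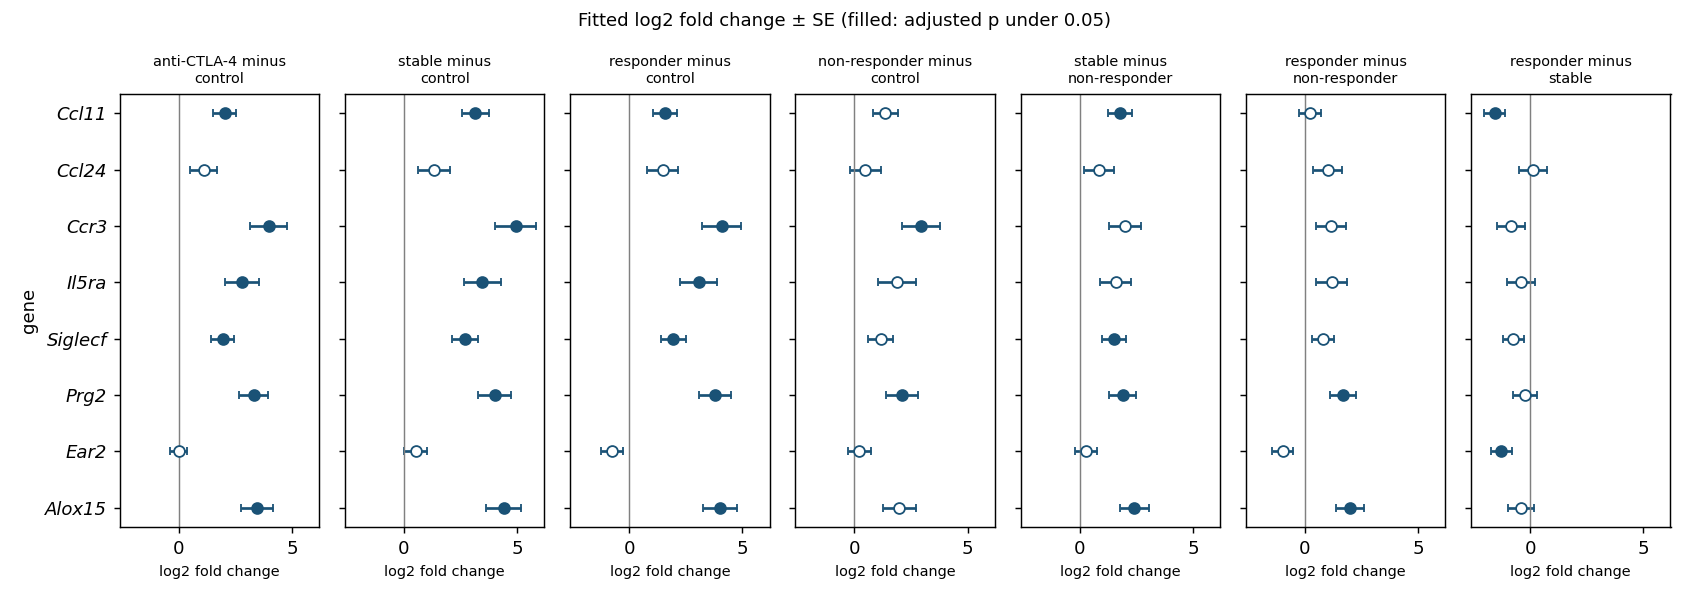
Fitted log2 fold change (horizontal axes) of the 8 tested genes in the 7 comparisons; points are estimates, bars are 1 SE and filled points passed an adjusted p under 0.05. In the 3 comparisons of anti-CTLA-4, stable and responder tumours with controls the same 6 points are filled, while Ccl24 and Ear2 are open.

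Between outcome groups fewer of the genes passed, as the plot of fold changes shows. In stable tumours against non-responders 4 of 8 rose, Alox15, Prg2, Ccl11 and Siglecf, where 14.9% of all genes passed (7.08% higher, 7.86% lower), with a median of 1.68 against -0.02. In responders against non-responders 2 of 8 rose, Alox15 and Prg2, where 48.9% of all genes passed (25.2% higher, 23.8% lower), with a median of 1.09 against 0.05. A count of 2 of 8 is close to that background. In responders against stable tumours 2 of 8 fell, Ccl11 and Ear2, where 38.2% passed (20.5% higher, 17.8% lower), with a median of -0.57 against 0.01. With adjustment for the protein-coding share 0 of 8 passed edgeR's test in both responder comparisons, where 1810 (against non-responders) and 0 (against stable tumours) of all 18031 genes passed, with lowest adjusted p-values of 0.0878 (Alox15, against non-responders) and 0.490 (Ccl11, against stable tumours). Without non-responder 6 the count was 5 in responders against non-responders, where 47.4% of all genes passed in that fit, and 6 in stable tumours against non-responders, where 21.1% passed. Between non-responders and controls 0 of 8 then passed, where 10.2% of all genes did, with a lowest adjusted p of 0.111 (Prg2).

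Levels of different genes are comparable per length only. By the authors' RPKM, the median in stable tumours ran from Ccl11 (64.7 RPKM) through Ear2 (12.8), Alox15 (3.83), Ccl24 (1.81), Ccr3 (1.62), Prg2 (1.39) and Siglecf (0.962) to Il5ra (0.340) and Epx, listed at 0. The ranges over the 6 tumours of Ccl24 (1.02 to 2.79), Ccr3 (0.365 to 2.71), Prg2 (0.305 to 2.16) and Siglecf (0.301 to 1.91) overlap, so these neighbours are not ordered beyond their spread. Nor are the others below Ccl11. Ear2 (5.59 to 15.9) overlaps Alox15 (1.59 to 8.78), and Alox15 overlaps Ccl24. Siglecf overlaps Il5ra (0.0583 to 0.680), and Il5ra overlaps Epx, with a highest value of 0.0766. In controls Ear2 and Ccl11 were level at a median of 7.07 RPKM each, and all others were at or below 0.500 RPKM. In responders the median was 18.0 RPKM for Ccl11, 3.26 for Ear2 and 2.65 for Alox15. The range of Ear2 (1.42 to 19.4) overlaps those of Ccl11 (10.1 to 77.3) and Alox15 (1.27 to 7.99). Ear2 is therefore not ordered against either gene beyond its spread.

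Markers of some other cells also differed between these groups. Of 12 macrophage markers, 10 rose and 0 fell in stable tumours against controls, where 22.2% of all genes were higher. In responders against controls 9 rose and Cd163 fell (-1.81, adjusted p = 0.00179), where 36.1% of all genes were higher and 28.9% lower. In stable tumours against non-responders 4 rose, where 7.08% of all genes were higher, and in responders against stable tumours 9 fell and 1 rose, where 17.8% were lower and 20.5% higher. Their summed level ranged over 1158 to 1668 CPM (controls), 1386 to 4738 (non-responders), 4213 to 6951 (stable) and 1851 to 6216 (responders), with no marker at 0. All 10 T cell markers rose in each anti-CTLA-4 group against controls, where 10.6% (non-responders), 22.2% (stable) and 36.1% (responders) of all genes were higher. Of 10 fibroblast markers, 8 rose in stable tumours and 5 in responders against controls, beside the same 22.2% and 36.1%. In responders against stable tumours 3 fell, where 17.8% of all genes were lower. The neutrophil list summed to 5.86 to 12.2 CPM in controls, with Ly6g, Ngp and Camp at 0, and to 39.9 to 70.6 in stable tumours and 34.2 to 96.2 in responders. Those 3 genes stayed too low to test, with 5, 5 and 10 counts in all 25 tumours. Much of the sum was Csf3r, at a mean of 3.07 CPM in controls, 31.8 in stable tumours and 33.6 in responders. Of 7 neutrophil markers tested, 5 rose in stable tumours and 7 in responders against controls, beside the same 22.2% and 36.1%. Resident macrophage markers summed to 45.8 to 91.1 CPM (controls), 38.4 to 314 (non-responders), 267.6 to 1363 (stable) and 33.6 to 2037 (responders), with none at 0. Most of that sum in stable tumours and responders was Chil3, at a mean of 0.751 CPM in controls, 649 in stable tumours and 682 in responders. Of 11 of these markers tested, 3 rose in stable tumours against controls (Chil3, Car4 and Marco), near the 22.2% of all genes. In responders 4 rose, near the 36.1% of all genes. Another 5 fell (Lyve1, Cd209f, Cd209b, Pparg and Icam2), where 28.9% of all genes were lower. Of 10 mast cell and basophil markers tested, 1 fell in stable tumours and 4 fell in responders against controls. Over all genes 19.6% and 28.9% were lower, so the count in stable tumours is below that share. Against non-responders 5 of these 10 fell in stable tumours and 5 in responders, where 7.86% and 23.8% of all genes were lower. In responders against stable tumours 2 fell, near the 17.8% of all genes. The part of these cells in the levels of the 9 genes was not tested.

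Within groups, the eosinophil markers varied together from tumour to tumour. Deviations from the group means were correlated over 25 tumours, for all 28 pairs of the 8 genes and for the 8 genes with 7 marker lists, 84 relations in all, of which 24 passed an adjusted permutation p of 0.05. All 6 pairs among Siglecf, Ccr3, Il5ra and Prg2 passed, with Pearson r from 0.67 to 0.82 and Spearman rho from 0.67 to 0.76 (adjusted permutation p from 0.00084 to 0.0028), and r from 0.64 to 0.71 without the 2 tumours farthest from the median. Alox15 passed with all 4 of them. Its highest r, with Ccr3, was 0.89 (rho 0.86, permutation p = 1e-05, the smallest that these permutations can give, adjusted p = 0.00056), and 0.82 without non-responder 6 and responder 5. The share of all gene pairs that would pass was not computed, so the pattern is not shown to be particular to these genes. Genes outside the set came closer to a marker than other markers did. Tmbim6 reached r 0.85 with Siglecf (Ccr3 0.82), and F5 reached 0.88 with Il5ra (Ccr3 0.73).

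**Figure D3:**
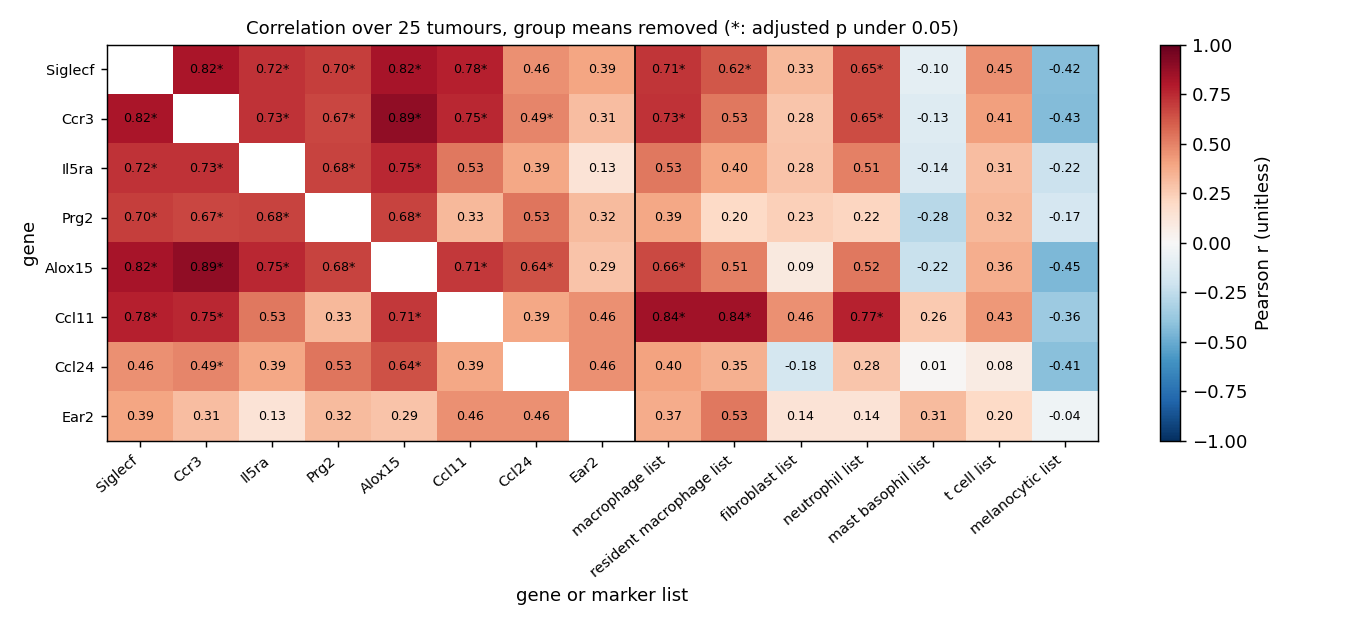
Pearson r over 25 tumours after removal of group means, between the 8 tested genes (rows) and the same genes or 7 marker lists (columns, lists to the right of the line); a star marks an adjusted permutation p under 0.05. The square of Siglecf, Ccr3, Il5ra, Prg2 and Alox15 is starred throughout, and the Ear2 row has no star.

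In the map of correlations Ccl11 passed with some of these genes and with lists of other cells. It passed with Siglecf (r 0.78, rho 0.73, adjusted permutation p = 0.00084), Ccr3 (r 0.75, rho 0.66, adjusted permutation p = 0.00168) and Alox15 (r 0.71, rho 0.64, adjusted permutation p = 0.00361), but not with Il5ra (r 0.53, adjusted permutation p = 0.0538) or Prg2 (r 0.33, adjusted permutation p = 0.214). Without responder 5 and non-responder 6 these 3 were 0.62, 0.54 and 0.55. Its highest values were with the resident macrophage list (r 0.84, rho 0.78, adjusted permutation p = 0.00056) and the macrophage list (r 0.84, rho 0.82, adjusted permutation p = 0.00084), at 0.78 and 0.70 without those 2 tumours. With the fibroblast list it was 0.46 (adjusted permutation p = 0.125). Ccl24 passed with Alox15 (r 0.64, rho 0.70, adjusted permutation p = 0.00126) and Ccr3 (r 0.49, rho 0.54, adjusted permutation p = 0.031). Ear2 passed with none of the other 7 genes, at r from 0.13 to 0.46. Of the 56 relations with marker lists 9 passed, and they were not particular to Ccl11. Siglecf passed with the macrophage list (r 0.71, rho 0.69, adjusted permutation p = 0.00162), the resident macrophage list (r 0.62, rho 0.60, adjusted permutation p = 0.012) and the neutrophil list (r 0.65, rho 0.68, adjusted permutation p = 0.00361), at 0.53, 0.44 and 0.47 without responder 5 and non-responder 6. Ccr3 passed with the macrophage list (r 0.73, rho 0.64, adjusted permutation p = 0.00252) and the neutrophil list (r 0.65, rho 0.60, adjusted permutation p = 0.0108), at 0.55 and 0.42 without the same tumours. Alox15 passed with the macrophage list (r 0.66, rho 0.62, adjusted permutation p = 0.00676), at 0.73 without non-responder 6 and responder 1. Ccl11 also passed with the neutrophil list (r 0.77, rho 0.78, adjusted permutation p = 0.0022), at 0.63 without responder 5 and non-responder 6. No difference between these correlations was tested.

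The genes most like each member were ranked over the same 25 tumours by Pearson r of the deviations, among 13278 genes, as a description. F5, which encodes coagulation factor V, came first for Ccr3 (r 0.91), Il5ra (0.88), Prg2 (0.77) and Alox15 (0.90). Ccr3 was followed by Retnlg (0.90) and Hvcn1 (0.90), and Siglecf by Tmbim6 (0.85), Cyba (0.84) and Arl11 (0.84). For Alox15 the next were Ccr3 (0.89) and Gpr108 (0.87). The genes nearest Ccl11 were Rarres2, which encodes the chemoattractant chemerin (0.95), Necap2 (0.91) and Hsd11b1 (0.91). Ear2 was most like Mgl2, a C-type lectin gene of macrophages and dendritic cells (0.87, rho 0.68). For Ccl24 no gene exceeded 0.73, the value of Unc50.

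The levels of Alox15 and Ccl11 were set side by side within each tumour. Their log2 ratio was chosen after its values were seen, so it is a description with no test. It was -3.73 ± 0.32 in controls (SD, n = 5), -3.52 ± 0.50 in non-responders (SD, n = 6), -2.69 ± 0.50 in stable tumours (SD, n = 6) and -1.27 ± 1.15 in responders (SD, n = 8). The responders ranged from -2.20 to 1.23, with responder 1 highest, and all 8 lay above every non-responder and every control, while 6 of 8 lay above every stable tumour. The mean ratio of responders differed from that of stable tumours by 1.42 and from that of non-responders by 2.26. Without responder 1 these differences were 1.07 and 1.90. On the log2(RPKM + 1) scale they were 1.42 and 1.08. The difference of responders from non-responders was thus smaller on the RPKM scale. Differences among controls, non-responders and stable tumours turned direction with the scale. That of stable tumours from controls was 1.04 on the count scale and -0.91 on the RPKM scale.

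**Figure D4:**
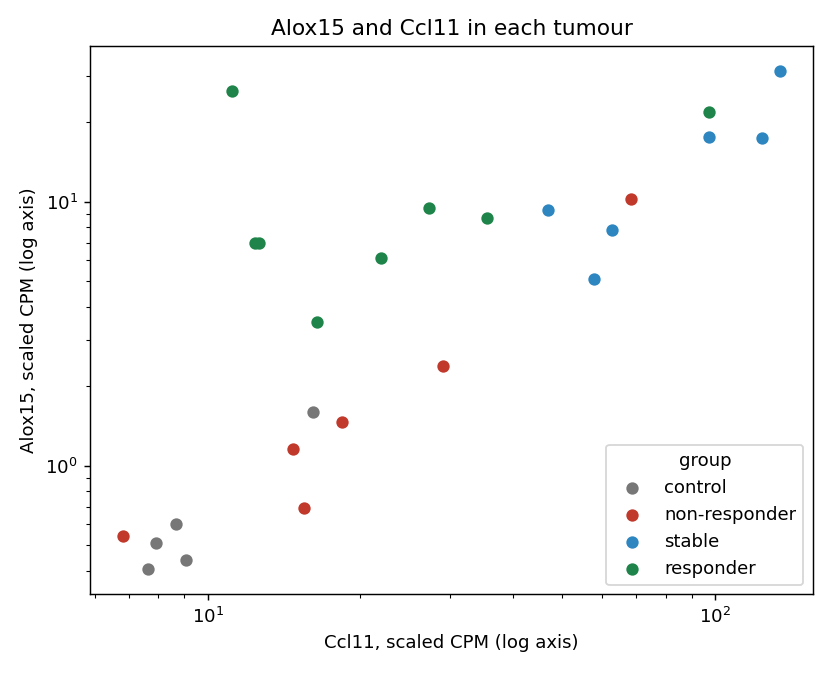
Scaled CPM of Alox15 (vertical, log axis) against Ccl11 (horizontal, log axis) in each of the 25 tumours; points are tumours, coloured by group. Responder 1 pairs 26.3 CPM of Alox15 with 11.2 CPM of Ccl11, and the 6 stable tumours lie at the right with 46.9 to 134 CPM of Ccl11.

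Of 18 further genes expressed in eosinophils or their precursors that could be tested, 13 rose and 2 fell in anti-CTLA-4 tumours against controls, where 27.7% of all genes were higher and 23.4% lower, with a median of 1.92. The largest changes were in Cd300lf, an inhibitory receptor of myeloid cells (log2 fold change 3.24 ± 0.44), Csf2rb2 (3.08 ± 0.41), Csf2rb, the shared signalling chain of the interleukin-5 receptor (2.74 ± 0.31), and Thbs1 (2.32 ± 0.39). Csf2rb averaged 17.2 ± 5.51 CPM in controls (SD, n = 5) and 156 ± 43.2 in responders (SD, n = 8), and is used by other myeloid cells too. The list also holds Adgre1, a macrophage marker, and many of its genes are made by macrophages and other myeloid cells. The 2 that fell were Gata2, a GATA factor of the eosinophil and mast cell lineages (-1.49 ± 0.28), and Itga4, an integrin chain of the Vcam1 receptor (-0.80 ± 0.17). Gata1, another GATA factor of the list, rose against controls in stable tumours (2.94 ± 0.67) and in responders (2.56 ± 0.66). It averaged 0.342 CPM over the 25 tumours, below the level set for naming genes by their change. In responders against non-responders 7 rose and 2 fell, where 25.2% of all genes were higher and 23.8% lower, with Cd300lf changed most (2.36 ± 0.41). The granule genes Prg3, Ear1, Ear6, Ear10 and Ear14 were too low to test, with 12, 4, 21, 3 and 3 counts in all 25 tumours.

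The type 2 pathway was read mostly through receptors and target genes. Il5, the ligand of Il5ra, had 17 counts in all 25 tumours, and Il4 and Il13 had 75 and 96, so none could be tested. Of 21 pathway genes tested, 14 rose and 0 fell in anti-CTLA-4 tumours against controls, with a median of 1.19. Over all genes 27.7% were higher and 23.4% lower. The pathway genes with the largest changes were Chil3 (8.49 ± 1.87), also a marker of the resident macrophage list, Arg1 (3.36 ± 0.90), Il7r (3.36 ± 0.47) and Il2rg (2.60 ± 0.31). Chil3, Arg1 and Il7r are also expressed by macrophages or T cells. Stat6, the transducer of interleukin-4 and interleukin-13 signals, passed in none of the 7 comparisons. Il33, an alarmin that activates eosinophils, rose in stable tumours against controls (1.14, adjusted p = 0.0134) and fell in responders against stable tumours (-1.11 ± 0.32, adjusted p = 0.0108).

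Other chemokine genes followed Ccl11 in part. The 7 genes tested were Ccl5, Ccl6, Ccl7, Ccl8, Ccl9, Ccl12 and the receptor gene Ccr1. In anti-CTLA-4 tumours against controls 6 rose and 0 fell, with Ccl5 (2.95 ± 0.51), Ccl6 (2.19 ± 0.51), Ccl8 (1.67 ± 0.46) and Ccl9 (1.64 ± 0.43) leading. In responders against stable tumours, where 17.8% of all genes were lower, 2 of 7 fell, Ccl8 (-1.40 ± 0.44, adjusted p = 0.0166) and Ccl7 (-1.03 ± 0.32, adjusted p = 0.0157). Of 7 adhesion genes, 5 rose against controls, among them the integrin chains Itgb7 (3.38 ± 0.43) and Itgb2 (2.81 ± 0.41), Icam1 (2.64 ± 0.35) and Vcam1, the endothelial ligand of eosinophil integrins (1.39 ± 0.31). Of 11 lipid mediator genes related to Alox15, 3 rose and 4 fell. Ptgds, a prostaglandin D2 synthase, fell most (-5.95 ± 0.63) and its level was 331.2 ± 74.8 CPM in controls, while Ltc4s, which makes leukotriene C4, rose (1.56 ± 0.38). Alox5 rose by a log2 fold change of 0.63 (adjusted p = 0.0251), and that of Alox12 was 0.28 and did not pass (adjusted p = 0.771). Beside each of these counts against controls, 27.7% of all genes were higher and 23.4% lower.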

How the data were processed

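RNA was sequenced from 25 tumours, 1 library each. The authors deposited a table of expected counts per gene, with no normalization (5.64% of its values are not whole), and a table of RPKM values for which the sources used here name neither gene lengths nor denominator. The submitters' processing notes name bcl2fastq 2.17, Trimmomatic, STAR 2.5.1, RSEM 1.2.22 and the build mm10, with no role stated. Per the labels' protocols the kit was for stranded total RNA, yet polyA RNA is listed as the molecule. All 55450 identifiers and symbols matched GENCODE M21 (GRCm38), from which coordinates were taken, and 0 columns belonged to other samples. No 2 replicates were a duplicated library.

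Counts were rounded to whole numbers. Genes were filtered with filterByExpr, libraries scaled with TMM, and 4 group means over all 25 tumours were fitted with edgeR 4.0.16 in R 4.3.3 (robust quasi-likelihood F tests, two-sided, Benjamini-Hochberg adjustment over 18031 genes, called at an adjusted p under 0.05). The anti-CTLA-4 contrast was the mean of the 3 outcome groups. The scripts were tested on simulated data. Correlations used log2 CPM with a prior count of 2 and 100000 permutations of tumours within groups (Python 3.11.15, numpy 2.4.6, scipy 1.17.1). Exact permutation tests were used for Epx. A limit of 3 counts over a group was set for genes at 0.

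The genes and the lists were chosen with earlier results of these data known. From the lists of eosinophil, type 2, chemokine, adhesion and lipid genes, up to 4 called genes a list with a mean of at least 1 CPM were named by the largest change, besides genes tied to a member by function. The 3 genes most like a member were named by Pearson r, among genes with a mean of at least 1 CPM and leaving out pseudogenes, predicted genes, ribosomal protein genes and receptor segments. Alternatives were RLE factors, no filter, a stricter filter (1 CPM in 8 tumours), DESeq2 1.42.0, only the groups compared, adjustment for the protein-coding share, protein-coding genes only, limma 3.58.1 on log2(RPKM + 1) and log2(RPKM + 0.1), and leaving out each tumour. Replicates are numbered in record order, which pairs none.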

Additional observations from a re-analysis of the deposited data

Results flagged for a closer look

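Each of the 32 sets of values formed by a tested gene in a group was searched for a tumour far from the others of its group, as the gap to its nearest neighbour over the range of the group on the log2 scale (Dixon's 95% critical value). Chance flags about 1 in 20 groups, and 4 of 32 were flagged. Control 5 was the highest control for Ccl11 at 16.14 CPM (gap over range 0.770, critical value 0.71) and for Alox15 at 1.604 CPM (0.732). Non-responder 6 was the highest non-responder for Prg2 at 0.7644 CPM (0.632, critical value 0.625). Responder 5 was the highest responder for Ear2 at 21.39 CPM (0.590, critical value 0.526), and it was the responder with the highest protein-coding share, 87.0%.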

How the results depend on the processing

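For single genes and comparisons, 1222 of 1341 alternative values kept their direction and side of the threshold, 63 lost a call, 35 gained one and 21 turned direction. The 6 genes called in anti-CTLA-4, stable and responder tumours against controls were 5 under the stricter filter, which drops Il5ra. With only the groups compared they were 7 in stable tumours and 5 in responders, where Il5ra fell under the filter, and with each tumour left out 6 in stable and anti-CTLA-4 tumours and 6 to 7 in responders. In responders against non-responders (2 genes) it was 0 with adjustment for the protein-coding share, 4 in limma on log2(RPKM + 0.1), 4 without responder 1 and non-responder 6, a setting chosen after seeing the data, and 2 to 5 with each tumour left out. In responders against stable tumours (2 genes) it was 0 with that adjustment, 1 with no filter, with only the groups compared and without those 2 tumours, and 1 to 3 with each tumour left out. In stable tumours against non-responders (4 genes) it was 1 with no filter and 1 to 6 with each tumour left out. In non-responders against controls (2 genes) it was 1 with RLE, 0 with no filter, with only the groups compared, in limma on log2(RPKM + 1) and log2(RPKM + 0.1) and without those 2 tumours, and 0 to 3 with each tumour left out. Without removal of group means 65 of 84 correlations passed, against 24. With only non-responders and controls in the fit, Ccr3 and Prg2 fell under the filter. The cause of the other changes was not tested.

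The values that turned direction were not called in the fit reported, and the ratio of Alox15 to Ccl11 has no test. For Ccl11 in responders against non-responders the range with each tumour left out was -0.36 to 0.81. For Ccl24 in responders against stable tumours (0.14) the value was -0.42 with that adjustment, -0.17 in limma on log2(RPKM + 1), -0.55 on log2(RPKM + 0.1), -0.42 without responder 1 and non-responder 6, and -0.42 to 0.33 with each tumour left out. For Ear2 in anti-CTLA-4 against controls it was 0.019 under the stricter filter, 0.22 with that adjustment, 0.0037 without those 2 tumours and -0.30 to 0.35 with each tumour left out. On the log2(RPKM + 1) scale the log2 ratio of Alox15 to Ccl11 was -0.34 in stable tumours against non-responders (0.83 on the count scale), -0.91 in stable tumours against controls (1.04) and -0.56 in non-responders against controls (0.20), where Alox15 lay below 1 RPKM in controls. RLE factors moved the median of all genes by at most 0.043. No paired analysis was possible because the labels give no replicate numbers shared between groups. Depth limits Il5ra, Prg2 and Ccr3 in controls, at 15, 12 and 27 counts over the 5 tumours, and Epx throughout.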
